A study of Mus musculus with 4 samples.

Results

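The S100 genes encode small calcium-binding proteins. The 8 members described here are S100a1, S100a4, S100a6, S100a8, S100a9, S100a10, S100a11 and S100a13, taken by symbol from the 32285 genes that were counted. They were measured in bone marrow cells that carried CD45.2 and Kit, taken 10 weeks after transplantation. CD45.2 is an allelic form of CD45, which marks donor-derived blood cells after a transplant, and Kit is the stem cell factor receptor of blood stem and progenitor cells. Each of the 4 groups, control, Mll3SI, Mll4SI and Mll3/4SI, was 1 single-cell library. Mll3 and Mll4 stand for the histone methyltransferase genes Kmt2c and Kmt2d, and Mll3/4SI carries both names. The labels do not spell out SI, and give no age, strain, conditioning or number of animals. All groups share the transplantation and the selection for CD45.2 and Kit.

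An S100 protein binds calcium through a pair of EF-hands and usually works as a dimer. S100a8 and S100a9 form calprotectin, which fills the cytosol of neutrophils, binds zinc and manganese, and is released as an alarm signal that acts through Tlr4. In the marrow their RNA is known to accumulate as granulocytes mature, whereas other members, such as S100a10 and S100a6, are known as partners of membrane-binding annexins in many cell types.

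All 8 genes lie on mouse chromosome 3 (GENCODE M21, build GRCm38). S100a1 (90511034 to 90514392, minus strand) and S100a13 (90514435 to 90524581, plus strand) start 43 bases apart in opposite directions. S100a4 (90603771 to 90606045, plus strand), S100a6 (90612882 to 90624181, plus strand) and S100a8 (90668978 to 90670035, plus strand) follow. S100a9 (90692632 to 90695721, minus strand) faces S100a8, and 22597 bases separate their ends. S100a11 (93520488 to 93526287, plus strand) and S100a10 (93555080 to 93564643, plus strand) lie apart from these, with 2824767 bases between S100a9 and S100a11.

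The promoters of S100a8 and S100a9 are shown because this pair carried most of the family's RNA. RefSeq windows of 250 bases before the start, on build GRCm38.p6, existed for 7 of the 8 members, S100a10 being the exception. They were searched on both strands for a C/EBP motif, TTGCNNAA, and a PU.1 motif, GAGGAA. Both factors are known to act in granulocytes. The bases of the S100a8 window that precede its GENCODE gene span (chr3:90668821-90668977, plus strand) and the S100a9 window (chr3:90695722-90695971, minus strand) read as follows, with matched letters in capitals.
S100a8: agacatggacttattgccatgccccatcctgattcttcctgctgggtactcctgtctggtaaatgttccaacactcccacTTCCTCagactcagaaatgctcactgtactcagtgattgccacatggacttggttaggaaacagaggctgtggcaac
S100a9: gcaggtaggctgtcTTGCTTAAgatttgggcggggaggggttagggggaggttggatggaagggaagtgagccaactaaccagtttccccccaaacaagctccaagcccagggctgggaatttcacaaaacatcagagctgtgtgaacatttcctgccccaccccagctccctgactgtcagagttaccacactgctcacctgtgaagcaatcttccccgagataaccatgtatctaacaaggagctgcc
The capitals in the S100a8 stretch are a PU.1 match on the minus strand whose first letter lies at -170 from the RefSeq start. A second such match lies at -36, inside the GENCODE gene span and not printed. The capitals in the S100a9 window are a C/EBP match at -236. S100a11 held 1 PU.1 match at -153, and no match was found in the windows of S100a1, S100a4, S100a6 and S100a13. Of 32851 promoter windows of the same length, 9.56% held the C/EBP letters and 23.3% the PU.1 letters. A match describes letters only.

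The 4 libraries held 7524 to 11678 cell barcodes, of which 6743 to 10186 per library were kept. Median depth was 12800 to 19185 gene UMIs (unique molecular identifiers) per cell. Pairs of libraries shared 16 to 29 barcodes. Over all kept cells Kit stood at 100 to 112 CPM (UMIs of a gene per 1000000 gene UMIs) and Ptprc, which encodes CD45, at 179 to 312 CPM. Kmt2c (110 to 147 CPM) and Kmt2d (33.3 to 41.3 CPM) were present in every library, which checks no label, since the labels do not state what was altered in these genes. Xist was at 1148 and 1360 CPM in Mll4SI and Mll3/4SI and at or below 0.194 CPM in control and Mll3SI, while Eif2s3y, on the Y chromosome, was at 0 in the former pair and at 62.0 and 63.3 CPM in the latter. The sex of the cells and the genotype therefore cannot be told apart in the Mll4SI and Mll3/4SI comparisons.

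Cells were clustered without the S100 genes and named from marker genes. The names were rebuilt here and carry "-like" for that reason. Late granulocyte-like cells, named from late markers such as Mmp8 and Ly6g, numbered 323 in control, 165 in Mll3SI, 2708 in Mll4SI and 207 in the Mll3/4SI library. Most of them fell in cluster 19 in the control library (268 cells) and in cluster 2 in Mll4SI (2478 cells), and S100a6 is itself among the 10 leading genes of both. Mid granulocyte-like cells likewise fell mainly in cluster 0 in Mll4SI (2871 of 4519) and in cluster 11 in Mll3/4SI (1100 of 2904), 2 clusters with at most 13 cells in control or Mll3SI. S100a8 and S100a9 are among the leading genes of cluster 11. Cluster 10, led by Cpa3, Ms4a6c and Ly6e, stayed unnamed and held 1143 Mll3/4SI cells against 3 to 7 elsewhere, and cluster 17 held 679 Mll3/4SI cells and 1 other cell. The deposited cells carried 2 hashtag antibodies whose meaning the labels do not give. Cells positive for both made up 2.24% of kept cells in control, 4.72% in Mll3SI, 5.52% in Mll4SI and 2.49% in the Mll3/4SI library.

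With 1 library in each group there is no replicate check and no test. Intervals in brackets are at 95% and cover counting error only. A member counts as higher or lower when its log2 ratio to control, on CPM + 1, is at least 1 in size. The 3 comparisons share the same control library.

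Over all kept cells 7 members had enough RNA to be counted (a mean of at least 10 CPM), and S100a4 had not. None was past the fold in Mll3SI, where 0.318% of all 8166 genes were, none in Mll4SI (1.13% of all genes), and S100a10 alone, lower, in Mll3/4SI (1.48% of all genes). In granulocyte-monocyte-like cells, the granulocyte-like and monocyte-like cells together, the same 7 members gave none in Mll3SI (0.256% of all genes), none in Mll4SI (0.871%) and 1 lower in Mll3/4SI (1.04%), S100a10. In HSC/MPP-like cells, which resemble stem cells and multipotent progenitors, S100a6 was lower in Mll3SI (1 of 7, against 0.299% of all genes) and in Mll3/4SI (1 of 7, against 0.691%). In Mll4SI, S100a8 and S100a9 were higher there (2 of 7, against 1.22%).

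The medians of the members stayed small beside these single differences. The 7 members had a median log2 ratio in granulocyte-monocyte-like cells of -0.09 in Mll3SI, 0.13 in Mll4SI and 0.01 in the Mll3/4SI library, and the median of all genes was 0.01, -0.09 and -0.12. The members' medians in HSC/MPP-like cells were -0.13, -0.11 and -0.20, and those of all genes 0.01, -0.01 and -0.06. The members differed in which class and which library stood out, so they are described one by one, beginning with the calprotectin pair.

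S100a8 and S100a9 together made up 19.8% of all gene UMIs in mid granulocyte-like cells of control, 18.2% in Mll3SI, 20.1% in Mll4SI and 24.2% in the Mll3/4SI library. Mid cells are the stage marked by Camp, Ngp, Chil3 and Fcnb. In late granulocyte-like cells the pair's share was 22.2%, 20.6%, 21.4% and 25.97% in the same order of libraries, and Mll3SI had the lowest share of the 4 in both stages. The Mll3/4SI library had the highest.

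S100a8 in mid cells stood at 74718 CPM in control, 66729 in Mll3SI, 77004 in Mll4SI and 100929 in the Mll3/4SI library. The log2 ratio was 0.43 [0.43 to 0.44] in Mll3/4SI and -0.16 [-0.17 to -0.16] in Mll3SI. S100a9 in the same cells stood at 123603, 115521, 124310 and 140660 CPM. Its log2 ratio in Mll3/4SI was 0.19 [0.18 to 0.19], smaller than that of S100a8. Mid cells fell into clusters that the libraries used unequally, and within each of the 5 clusters with enough cells in both libraries S100a8 was higher in Mll3/4SI than in control, by 0.34 to 0.41 on the log2 scale, and S100a9 by 0.10 to 0.18.

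**Figure D1:**
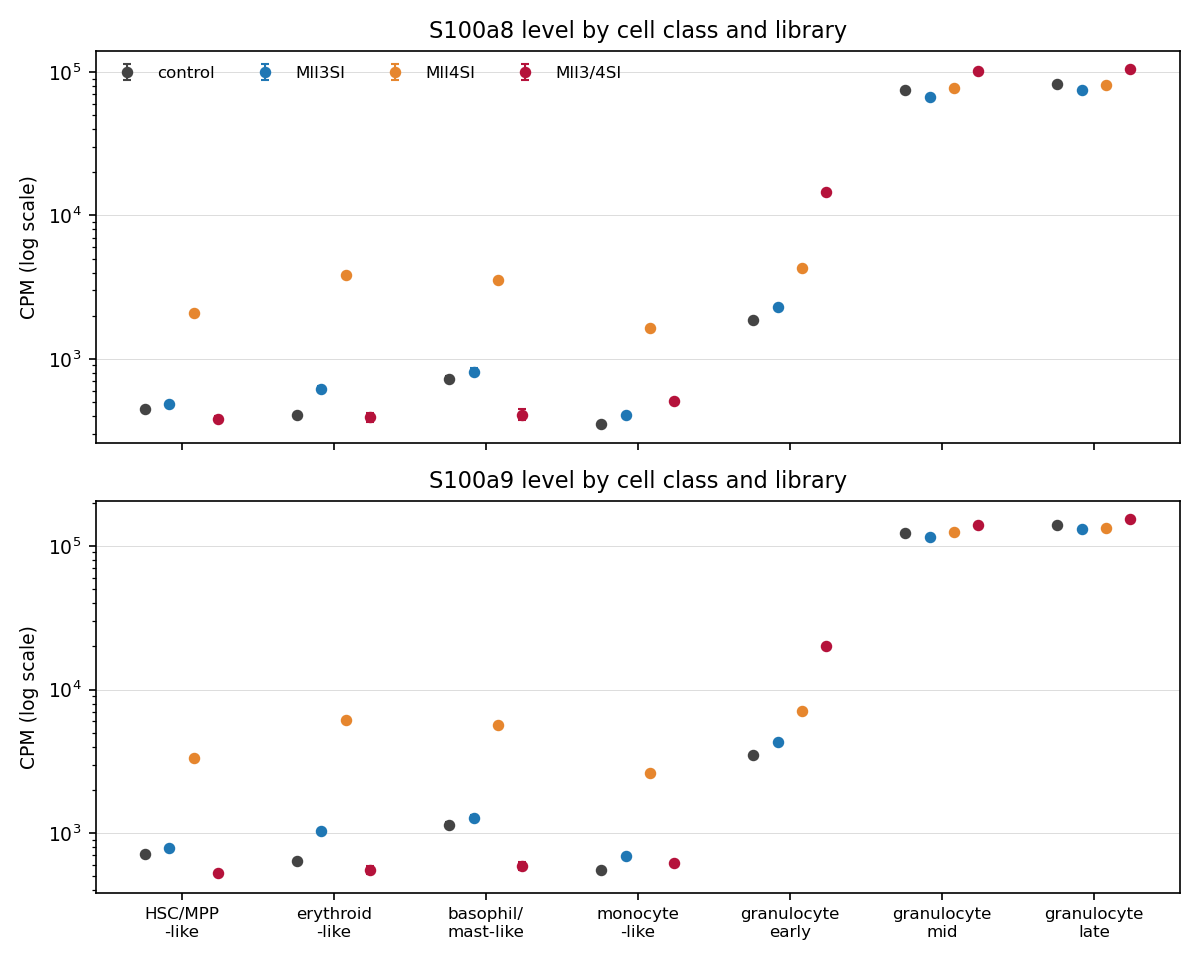
S100a8 (top) and S100a9 (bottom) in CPM on a log axis, by cell class, with 1 point for each library and bars for the exact 95% Poisson interval, mostly smaller than the point. Mll3/4SI stands highest in early granulocyte-like cells (14629 CPM of S100a8 against 1862 in control), and Mll4SI stands highest in the 4 classes on the left.

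The widest gap for the pair within granulocytes was in early cells, the stage led by Elane, Prtn3 and Mpo, genes of primary granule proteins. S100a8 stood at 1862 CPM in control, 2319 in Mll3SI, 4307 in Mll4SI and 14629 in the Mll3/4SI library. The log2 ratio was 0.32 [0.30 to 0.34], then 1.21 [1.19 to 1.23] and 2.97 [2.96 to 2.99]. S100a9 stood at 3498, 4322, 7084 and 20006 CPM, and its log2 ratio was 0.30 [0.29 to 0.32], then 1.018 [1.005 to 1.031] and 2.52 [2.50 to 2.53]. Of the 6 members counted in early cells, S100a8 and S100a9 were the 2 past the fold in Mll4SI (0.945% of all genes) and in Mll3/4SI (0.871%), and none was in Mll3SI (0.224%).

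The 5 early markers summed to 31266 CPM in control and 33978 in Mll3/4SI, and the 8 late markers to 121 and 156 CPM. The 5 intermediate markers summed to 1451 CPM in control, 2750 in Mll3SI, 5088 in Mll4SI and 3671 in the Mll3/4SI library, above control in each. The part of granulocyte stage in the S100a8 difference was not tested. The ratio of S100a8 to Camp UMIs was 2.20 in control, 1.22 in Mll3SI, 1.19 in Mll4SI and 5.98 in the Mll3/4SI library. Against Camp, S100a8 was therefore highest in Mll3/4SI and lower in Mll3SI and Mll4SI than in control.

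A larger share of early cells had a high S100a8 level in Mll3/4SI. Cells above 2000 CPM were 160 of 865 in control (18.5%), 298 of 1411 in Mll3SI (21.1%), 200 of 714 in Mll4SI (28.0%) and 269 of 486 in the Mll3/4SI library (55.3%, exact Clopper-Pearson interval 50.8 to 59.8%). The median S100a8 level over early cells was 454, 412, 631 and 3614 CPM, and the median S100a9 level 636, 494, 810 and 907 CPM. The gap in the median was therefore wider for S100a8 than for S100a9.

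Early cells lay in clusters 5, 8 and 27, which the libraries used unequally. Cluster 27, where Fcnb is among the leading genes beside Elane and Prtn3, held 106 of the 486 early Mll3/4SI cells, 30 of 865 in control, 92 of 1411 in Mll3SI and 41 of 714 in Mll4SI. Its S100a8 level was 51771 CPM in Mll3/4SI and 24101 in Mll3SI, and its S100a9 level 75389 and 48553 CPM. Without cluster 27 the early log2 ratio in Mll3/4SI was 2.87 for S100a8 and 2.35 for S100a9. The 2 largest early clusters differed from each other. In cluster 8 S100a8 was at 1191 CPM in control and 12187 in Mll3/4SI, and S100a9 at 2295 and 16322. In cluster 5 S100a8 was at 1064 CPM in control, 877 in Mll3SI, 2226 in Mll4SI and 2344 in the Mll3/4SI library. S100a9 in cluster 5 was at 1792, 1267, 3264 and 1752 CPM, so in Mll3/4SI S100a8 was above control and S100a9 was not. With finer clustering the log2 ratio of S100a8 in early Mll3/4SI cells was 1.48 and that of S100a9 0.88, and with doublets kept the ratio of S100a8 was 2.13. In Mll4SI the S100a8 ratio ran from 0.78 to 1.52 over the alternatives and that of S100a9 from 0.60 to 1.36, and they were 0.85 and 0.64 with cells positive for both hashtags removed, which ends both calls.

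S100a8 was high beside S100a9 in the Mll3/4SI library. The ratio of S100a8 to S100a9 UMIs in mid cells was 0.604 in control, 0.578 in Mll3SI, 0.619 in Mll4SI and 0.718 in the Mll3/4SI library. In early cells it was 0.532, 0.537, 0.608 and 0.731, and in late cells 0.594, 0.565, 0.604 and 0.681. These ratios set 1 gene pair side by side between libraries. They do not measure how many molecules of each a cell holds, since capture can differ between transcripts.

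In mid cells the Mll3/4SI ratio was 0.718 among both Hashtag1 and Hashtag2 cells, against 0.609 and 0.600 in control. Not every class was alike in both hashtags. In basophil/mast-like cells of Mll3/4SI the ratio was 0.722 among 32 Hashtag1 and 0.659 among 37 Hashtag2 cells, against 0.565 and 0.661 in control. Cluster 10 had a ratio of 1.05 [1.03 to 1.06], at an S100a8 level of 1588 CPM and an S100a9 level of 1515 CPM. Among single clusters within classes, S100a8 also exceeded S100a9 in Mll3/4SI cells of early cluster 5 (ratio 1.34, 169 cells) and monocyte-like cluster 9 (1.12, 142 cells). Of the 1143 Mll3/4SI cells of cluster 10, 180 were above 2000 CPM of S100a8 (15.7%), and in 131 of these (72.8%, 65.7 to 79.1%) S100a8 exceeded S100a9. Among early cells above that level S100a8 exceeded S100a9 in 20.6% in control (14.6 to 27.7%), 17.8% in Mll3SI, 52 of 200 cells in Mll4SI and 37.2% in the Mll3/4SI library (31.4 to 43.3%). In mid cells S100a8 exceeded S100a9 in 0 of 3078 control cells (exact interval up to 0.120%) and in 1.48% of Mll3/4SI cells.

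**Figure D2:**
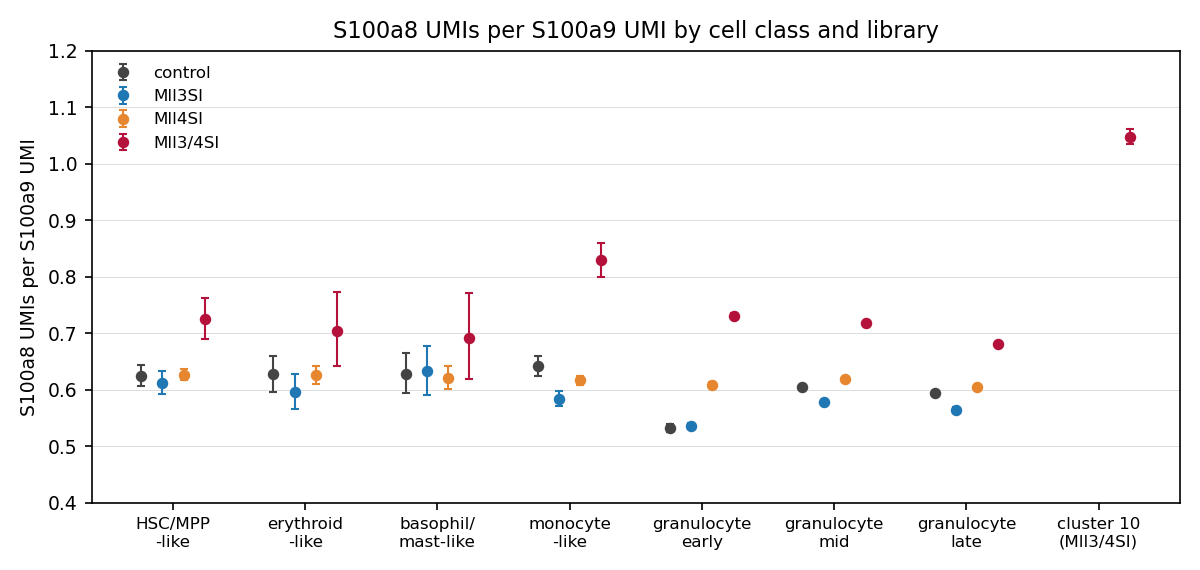
S100a8 UMIs per S100a9 UMI (linear axis that does not start at 0) by cell class and library, summed over cells, with exact 95% intervals of the ratio, in groups of at least 50 cells. The Mll3/4SI points lie at 0.681 to 0.829 in the named classes, above the other libraries' 0.532 to 0.642, and at 1.05 in cluster 10.

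Outside granulocytes the pair was lower. In HSC/MPP-like cells S100a8 stood at 444 CPM in control, 483 in Mll3SI, 2086 in Mll4SI and 384 in the Mll3/4SI library, and S100a9 at 712, 788, 3328 and 530. The S100a8 log2 ratios were 0.12, 2.23 [2.19 to 2.27] and -0.21. In erythroid-like cells, which should lack it, S100a8 stood at 404, 617, 3868 and 391 CPM, with log2 ratios of 0.61, 3.26 and -0.05. In monocyte-like cells it stood at 354, 408, 1632 and 512 CPM. Summed over cells, the Mll4SI library was the highest in each of these classes, and its erythroid-like level was above its HSC/MPP-like one. Erythroid-like cells above 2000 CPM of S100a8 were 9 of 290 in control, 3 of 239 in Mll3SI, 13 of 129 in Mll4SI (10.1%) and 13 of 93 in the Mll3/4SI library (14.0%). By this share Mll4SI was not the highest. The erythroid-like ratio of S100a8 in Mll3/4SI ran from -2.91 to 0.94 over the alternatives.

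The other granulocyte genes were higher in the same cells of Mll4SI. All 16 granulocyte markers were detected in HSC/MPP-like cells of every library, and their sum was 5838, 6235, 10462 and 6175 CPM. Camp stood at 270 CPM in control and 1984 in Mll4SI. The S100a8 to Camp ratio was 1.05 in HSC/MPP-like cells of Mll4SI and 0.993 in its mid granulocyte-like cells, and the S100a8 to S100a9 ratio was 0.627 and 0.619. At an equal 3000 UMIs a cell, S100a8 was seen in 71.0%, 60.1%, 77.4% and 68.2% of HSC/MPP-like cells and in 72.4%, 64.4%, 84.7% and 70.1% of erythroid-like cells. The HSC/MPP-like share was not above the erythroid-like share in any library, so no level above background is claimed for HSC/MPP-like cells. Whether it is background was not tested.

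The median S100a8 level per HSC/MPP-like cell was 400, 281, 478 and 373 CPM, and 37 of 620 Mll4SI cells (5.97%) were above 2000 CPM against 2 of 746 in control. With cells positive for both hashtags removed, the Mll4SI log2 ratio was 1.37 in place of 2.23 in HSC/MPP-like cells and 2.12 in place of 3.26 in erythroid-like cells, and among Hashtag1 cells alone it was 0.89 for S100a8 and 0.90 for S100a9 in HSC/MPP-like cells, inside the fold. The part of free RNA and of mixed droplets in these values was not tested.

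Of the other counts outside granulocytes, 2 of 8 members were higher in monocyte-like cells of Mll4SI (0.961% of all genes), S100a8 and S100a9, with none past the fold in Mll3SI (0.122%) or Mll3/4SI (0.389%). The median S100a8 level per monocyte-like cell was 351 CPM in control, 251 in Mll3SI, 455 in Mll4SI and 302 in the Mll3/4SI library. In Mll4SI 57 of 1024 monocyte-like cells (5.57%) were above 2000 CPM, against 4 of 838 in control. In erythroid-like cells of Mll4SI 3 of 7 were higher (1.9%), S100a6 with the pair, and none was in Mll3SI (0.649%) or Mll3/4SI (1.11%). These values depended on doublet removal: with doublets kept, the erythroid-like log2 ratio of S100a8 was 1.03 in Mll4SI and -2.91 in Mll3/4SI, and that of S100a9 was 0.93 and -3.16. They also differed by hashtag, since S100a8 in erythroid-like cells of Mll4SI stood at 2460 CPM among 70 Hashtag1 cells and at 477 CPM among 45 Hashtag2 cells, against 400.2 and 403 in control. In basophil/mast-like cells the pair was higher in Mll4SI (2 of 7, 2.22% of all genes), S100a6 was lower in Mll3SI (1 of 7, 1.19%), and no member was past the fold in Mll3/4SI (2.39%). With doublets kept, the Mll4SI ratios there were 0.92 for S100a8 and 0.88 for S100a9 in place of 2.28 and 2.30, which ends both calls. The Mll3SI ratio of S100a6 there, -2.72, ran from -4.03 to -1.34 over the alternatives and rests on 4 UMIs against 60. B-like cells were numerous enough only in control (72) and Mll3SI (183), and S100a8, S100a9 and S100a6 were lower in Mll3SI. S100a8 stood at 1113 and 303 CPM (log2 ratio -1.87), S100a9 at 1852 and 493 (-1.91) and S100a6 at 85.1 and 36.2 (-1.21). The share of all genes was not counted there. In control B-like cells S100a8 was at 1483 CPM among 46 Hashtag1 and 435 among 25 Hashtag2 cells. In Mll3SI it was at 291 among 131 Hashtag1 and 326 among 49 Hashtag2 cells, so the gap for S100a8 lay mainly in Hashtag1 cells. By the same hashtags S100a9 was at 2466 and 756 CPM in control and at 489 and 479 in Mll3SI. S100a6 was at 62.1 and 144 CPM in control and at 26.1 and 61.4 in Mll3SI.

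S100a6, also called calcyclin, binds annexins and the ubiquitin ligase adaptor Cacybp. Among the named classes of control it stood at 2544 CPM in late granulocyte-like cells, 1011 in T/NK-like cells (25 cells) and 521 in mid granulocyte-like cells. B-like cells (72 cells) at 85.1, HSC/MPP-like cells at 77.9 and monocyte-like cells at 75.1 CPM followed, with intervals that overlap. Basophil/mast-like cells had 21.4 CPM, and erythroid-like (10.8) and early granulocyte-like cells (7.78), whose intervals overlap, had the least.

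S100a6 in HSC/MPP-like cells stood at 77.9 CPM in control, 32.3 in Mll3SI, 49.3 in Mll4SI and 27.8 in the Mll3/4SI library. All 3 altered libraries were below control. The log2 ratios were -1.24 [-1.43 to -1.10], -0.65 [-0.80 to -0.52] and -1.45 [-1.72 to -1.26]. At an equal 3000 UMIs, S100a6 was seen in 20.2% (17.3 to 23.2%) of control cells, in 9.14% of those in Mll3SI, 9.25% in Mll4SI and 10.2% in the Mll3/4SI library, and without thinning in 60.6%, 28.6%, 31.1% and 32.5%. The thinned share in erythroid-like cells was 4.78%, 2.22%, 3.39% and 1.30%, below the HSC/MPP-like share in each library. Median depths were 20656, 15712, 19362 and 22854 UMIs in HSC/MPP-like and 16862, 12137, 13359 and 18251 in erythroid-like cells, and thinning left out 2 to 4 of the former and 11 to 18 of the latter per library.

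The HSC/MPP-like difference did not have the same size in both hashtags. S100a6 stood at 79.0 CPM among Hashtag1 and 78.6 among Hashtag2 cells of control, at 31.0 and 35.5 in Mll3SI and at 40.3 and 40.7 in Mll4SI. In Mll3/4SI it stood at 18.3 among 187 Hashtag1 cells and 49.5 among 94 Hashtag2 cells. The Mll3/4SI log2 ratio was accordingly -2.05 in Hashtag1 and -0.66 in Hashtag2 cells, the second of which is inside the fold. Over the alternatives tried the Mll3SI ratio lay between -1.32 and -1.04, the Mll4SI ratio between -1.04 and -0.49, and the Mll3/4SI ratio between -2.39 and -0.66.

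S100a6 was also below control in mid and late granulocyte-like cells. In mid cells it stood at 521 CPM in control, 341 in Mll3SI, 233 in Mll4SI and 265 in the Mll3/4SI library, and its log2 ratio was -0.61 [-0.64 to -0.58], then -1.16 [-1.19 to -1.13] and -0.97 [-1.01 to -0.95]. Mll4SI was past the fold there (1 of 6 members, against 1.04% of all genes), and neither Mll3SI (0.317%) nor Mll3/4SI (1.25%) gave a member. The Mll4SI call ended with finer clustering (-0.67) and with doublets kept (-0.92), and the Mll3/4SI ratio ran from -1.34 to -0.61 over the alternatives. In late cells S100a6 stood at 2544, 2101, 1565 and 1446 CPM, with log2 ratios of -0.28, -0.70 and -0.81. Within clusters of mid cells it was below control in 5 of 5 clusters in Mll3SI (-0.78 to -0.41) and in 5 of 5 in Mll3/4SI (-1.76 to -0.85). Early cells had 7.78, 6.64, 20.5 and 2.73 CPM of S100a6 in the same order of libraries, a mean under the level needed to be counted. Mll4SI stood above control there (log2 ratio 1.29 [1.13 to 1.67]).

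**Figure D3:**
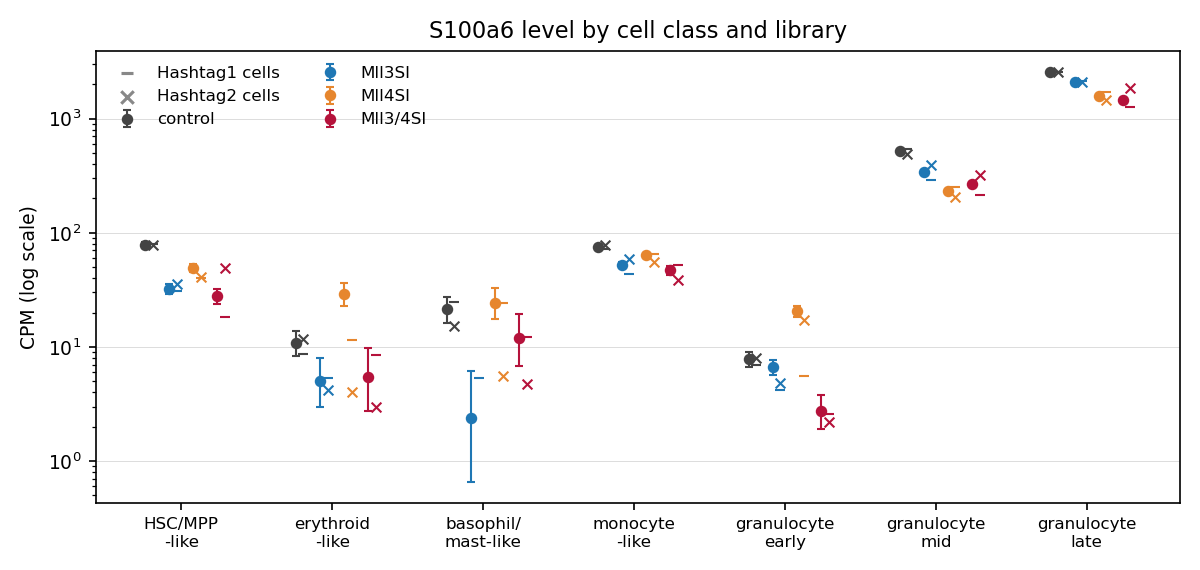
S100a6 in CPM on a log axis by cell class and library (filled points with exact 95% Poisson intervals), with the same value among Hashtag1 cells (dash) and Hashtag2 cells (cross), groups under 20 cells and values of 0 left out. Control lies highest in HSC/MPP-like cells (77.9 CPM) and in mid (521) and late (2544) granulocyte-like cells, and the Mll3/4SI hashtag values in HSC/MPP-like cells lie apart, at 18.3 and 49.5.

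Over all kept cells the order was different. S100a6 stood at 290 CPM in control, 158 in Mll3SI, 346 in Mll4SI and 173 in the Mll3/4SI library, so Mll4SI was above control (log2 ratio 0.25). When each library was given the class makeup of control, the log2 ratios were -0.54, -0.94 and -0.89, all below 0. In erythroid-like cells of Mll4SI S100a6 stood at 29.2 CPM against 10.8 in control, a log2 ratio of 1.35 [0.93 to 1.94], which became -0.15 with cells positive for both hashtags removed.

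S100a10 (p11) pairs with Anxa2 at the plasma membrane and, unlike other S100 proteins, is known not to need calcium. It was lower in granulocyte-like cells, where the calprotectin pair was highest, than in the other named classes. In control it was at 531 CPM in erythroid-like cells, 477 in basophil/mast-like, 337 in monocyte-like and 260 in HSC/MPP-like cells, and at 73.4 CPM in early, 4.87 in mid and 4.82 in late granulocyte-like cells, the last 2 with overlapping intervals. Its Pearson correlation with S100a8, of log2(CPM + 1) over the 30 pairs of class and library with at least 50 cells, was -0.94. These points share libraries, depth and cell totals, and this is a description.

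**Figure D4:**
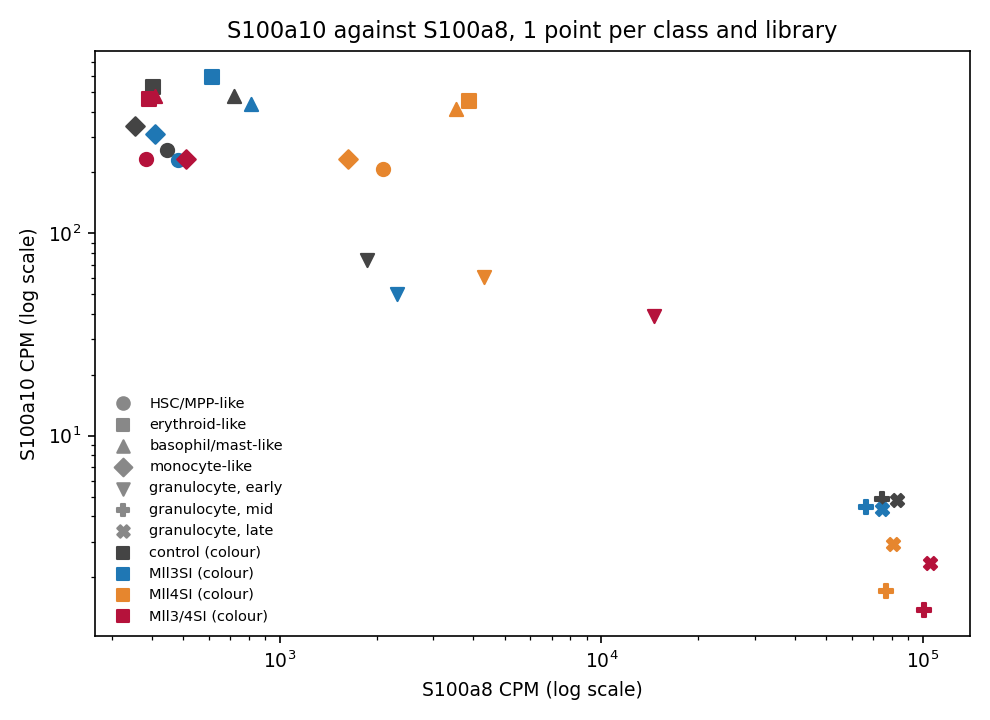
S100a10 against S100a8, both in CPM on log axes, with 1 point per class and library (shape for the class, colour for the library). Mid and late granulocyte-like cells lie at 1.38 to 4.87 CPM of S100a10, and early cells at 39.2 to 73.4 CPM, between them and the other classes.

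In granulocyte-monocyte-like cells S100a10 stood at 99.3 CPM in control, 98.2 in Mll3SI, 55.4 in Mll4SI and 38.4 in the Mll3/4SI library. The log2 ratios were -0.02 [-0.06 to 0.03], -0.83 [-0.89 to -0.80] and -1.35 [-1.43 to -1.31]. Control and Mll3SI did not differ beyond counting error, and the other two libraries were lower. The makeup of this group differs between libraries, and within monocyte-like cells S100a10 stood at 337, 309, 233 and 232 CPM (log2 ratios -0.13, -0.53 and -0.54) and within early cells at 73.4, 49.9, 60.9 and 39.2 CPM (-0.55, -0.27 and -0.89), none past the fold. Over the alternatives the Mll3/4SI ratio reached -1.27 in early cells, among Hashtag2 cells, and -1.25 in monocyte-like cells, with classes taken from the nearest control cells, both past the fold. In granulocyte-monocyte-like cells it was -0.98 among Hashtag1 and -1.89 among Hashtag2 cells.

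HSC/MPP-like cells had 260, 232, 208 and 234 CPM of S100a10 and erythroid-like cells 531, 590, 453 and 459. Mid cells were at 4.87, 4.47, 1.71 and 1.38 CPM, under the level needed to be counted. Seen at equal depth, S100a10 was in 1.79%, 1.54%, 0.446% and 0.173% of mid cells and in 55.2%, 46.6%, 46.1% and 56.9% of HSC/MPP-like cells.

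S100a11 (calgizzarin) binds Anxa1 and takes part in membrane repair. It was higher at each later granulocyte stage in every library, and no ratio to control was past the fold. It stood at 774, 876, 761 and 937 CPM in early cells, at 1382, 1372, 1175 and 1156 in mid cells and at 2385, 2340, 2200 and 1929 in late cells. The lowest log2 ratio of S100a11 in these 3 stages was -0.31 [-0.36 to -0.25], in late Mll3/4SI cells, and the highest 0.28 [0.24 to 0.31], in early Mll3/4SI cells. HSC/MPP-like cells had 289, 249, 268 and 265 CPM and erythroid-like cells 156, 164, 207 and 148. A processed copy, S100a11-ps, exists elsewhere in the annotation, so reads that fit both could have been split or dropped in counting.

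S100a1, best known as a calcium sensor of heart and skeletal muscle, was highest in early cells among the granulocyte stages. It stood at 108, 100, 95.8 and 117 CPM in early cells, at 43.6, 41.8, 23.7 and 29.9 in mid cells and at 35.8, 38.3, 15.1 and 22.1 in late cells. Mll4SI was lowest in mid and late cells, with log2 ratios of -0.85 [-0.97 to -0.78] and -1.19 [-1.57 to -0.91]. In late cells S100a1 was the 1 of 6 members past the fold in Mll4SI (2.98% of all genes), and none was in Mll3SI (1.29%) or Mll3/4SI (2.07%). The call ended when 10 CPM was added before the ratio (-0.87) and among Hashtag2 cells alone (-0.98). HSC/MPP-like cells had 52.6, 47.9, 46.6 and 45.7 CPM and monocyte-like cells 62.4, 54.2, 62.1 and 60.7.

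S100a13, which takes part in the export of Fgf1 and Il1a without a signal peptide, differed little between libraries. It stood at 65.9, 62.3, 68.2 and 78.0 CPM in HSC/MPP-like cells, at 86.3, 87.8, 89.5 and 131 in early cells, at 96.1, 90.6, 88.9 and 104 in mid cells and at 159, 131, 128 and 150 in late cells. Mll3/4SI was the highest library in HSC/MPP-like, early, mid and monocyte-like cells, with a log2 ratio of 0.59 [0.51 to 0.70] in early and 0.37 [0.26 to 0.48] in monocyte-like cells, inside the fold. S100a1 and S100a13, whose starts lie 43 bases apart, did not share a pattern: their correlation over the 30 pairs was -0.0026.

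S100a4, known for binding non-muscle myosin and for its use as a marker of motile cells, had its highest control levels in unnamed cluster 29, which was led by Cd74 and H2-Aa, and in monocyte-like (26.9 CPM), T/NK-like (21.2), HSC/MPP-like (17.6) and B-like (13.2) cells. Cluster 29 had 262, 154, 327 and 169 CPM, from 13 to 37 cells. Monocyte-like cells had 26.9, 18.2, 14.0 and 27.6 CPM, or a log2 ratio of -0.54 [-0.74 to -0.39], then -0.89 [-1.14 to -0.75] and 0.04 [-0.17 to 0.24]. The Mll4SI ratio ran from -1.26 to -0.57 over the alternatives. HSC/MPP-like cells had 17.6 CPM in control, 9.92 in Mll3SI, 1.65 in Mll4SI and 9.01 in the Mll3/4SI library, a mean under the level needed to be counted. Mll4SI was the lowest there, and granulocyte-like cells had 0.394, 0.238, 0.129 and 0.143 CPM.

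The surface antibodies gave a readout that did not choose the members. Gr1 binds Ly6G and Ly6C, proteins that appear as granulocytes and monocytes mature. Across quartiles of Gr1 in control granulocyte-monocyte-like cells, S100a8 went from 711 to 44266, 74164 and 77341 CPM, S100a6 from 38.5 to 238, 570 and 913 CPM, and S100a10 from 215 to 75.9, 5.49 and 5.23 CPM. The quartiles also differ in stage: 44.9% of the first and 0.235% of the last were early cells.

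Within mid cells alone S100a6 went with Gr1 in control from 314 to 466, 589 and 739 CPM, and in Mll3SI from 193 to 275, 394 and 525. In Mll4SI it went from 197 to 208, 235 and 298 CPM. In Mll3/4SI it went from 334 to 227, 225 and 274 CPM, with the first quartile highest. That first Mll3/4SI quartile had a median of 1.59% of antibody UMIs on Gr1, against 14.7% in control, so quartiles of the same number do not hold the same Gr1 level. S100a1 in mid cells went the other way in 3 libraries, from 82.4 to 14.3 CPM in control, 74.4 to 17.5 in Mll3SI and 35.3 to 11.4 in Mll4SI. In Mll3/4SI it went from 24.9 to 46.9, 31.7 and 14.7 CPM, with quartile 2 highest.

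The genes whose pattern over the 30 pairs was most like each member's are given by Pearson correlation, among 8502 genes. S100a8 and S100a9, at 0.999 with each other, were followed by Wfdc21 (0.99 with both), 4930438A08Rik (0.99 with both) and Camp (0.98 and 0.99). S100a6 was most like Gsap (0.98), Inpp4a and Pag1 (0.92 each). S100a10 was most like 3110009E18Rik, Rftn1 and Pdlim1 (0.98 each), and S100a11 most like Ubtd1 (0.98), Ltb4r1 (0.98) and Ero1l (0.97). S100a1 was most like Gpx1 (0.93), S100a4 most like Irf8 (0.90) and S100a13 most like Tsc22d4 (0.90). The pairs share libraries and depth, and no p is given.

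Among 17 partners and receptors of S100 proteins, 13 were counted in granulocyte-monocyte-like cells. None was past the fold in Mll3SI (0.256% of all genes) or Mll4SI (0.871%) and 1 was lower in Mll3/4SI (1.04%), Cd33, a sialic acid receptor that binds S100a9. Cd33 stood at 73.7, 61.8, 92.7 and 14.2 CPM, a log2 ratio of -2.30 [-2.47 to -2.29] in Mll3/4SI. The receptor Tlr4 was at 14.4, 15.5, 18.9 and 17.1 CPM, and Anxa2, the partner of S100a10, at 155, 134, 179 and 150 CPM. Ager, another S100 receptor, was at 0.988 to 1.42 CPM. The medians of the list were -0.05, 0.21 and -0.04 beside 0.01, -0.09 and -0.12 for all genes.

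In early cells, where the pair stood highest in Mll3/4SI, 2 of the 12 counted partners were higher there, Anxa1 (330 CPM in control and 747 in Mll3/4SI) and the integrin chain Itgam (38.5 and 84.9 CPM), where 0.871% of all genes were past the fold. None of the 12 was in Mll3SI (0.224% of all genes) or Mll4SI (0.945%). Of the 6 genes of the NADPH oxidase, the enzyme that calprotectin is known to feed with arachidonic acid, Cybb was past the fold in early cells of both Mll4SI and Mll3/4SI, at 55.6 CPM in control, 79.7 in Mll3SI, 141 in Mll4SI and 181 in the Mll3/4SI library. The other 5 were inside it.

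In HSC/MPP-like cells of Mll4SI, Anxa1 (102 CPM in control, 218 in Mll4SI) and Cybb (7.71 and 81.5 CPM) were past the fold, 1 of 11 partners and 1 of 6 oxidase genes against 1.22% of all genes, in the same cells that had more S100a8, S100a9 and Camp. Of the 10 regulators 9 were counted in granulocyte-monocyte-like cells, and 1 was past the fold in Mll3/4SI (1.04% of all genes), Irf8, a monocyte factor, at 139, 164, 122 and 67.4 CPM (log2 ratio -1.03 [-1.088 to -0.997] in Mll3/4SI). The makeup of this group differs between libraries, with 838 monocyte-like cells of 5104 in control and 332 of 3929 in Mll3/4SI. Within monocyte-like cells none of the 10 regulators was past the fold in Mll3/4SI (0.389% of all genes). In the whole group the other 2 factors named here were as follows. The granulocyte factor Cebpe was at 372, 304, 375 and 425 CPM and Cebpa at 60.2, 64.2, 45.7 and 39.3 CPM.

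The feature list held 9 further S100 genes, and all were close to 0. S100g gave 156 UMIs in all kept cells, S100a3 152, S100a2 90, S100b 71, S100a7a 61, S100a5 45, S100a14 17 and S100a16 3. S100z gave none. No level is read from these 9 genes.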

How the data were processed

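Genes (32285) and antibodies (15, of which 2 were hashtags) were read together in 4 libraries. The deposited values were raw UMI counts per feature and cell barcode, made by the authors with Cell Ranger 7.1.0 on build mm10, per the submitters' processing notes. Cell-calling settings are not given in the sources used here.

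Filters required 500 genes and 1000 UMIs per cell, with a mitochondrial share no higher than 10%. Scrublet scores ranked likely doublets library by library, and 409 control, 594 Mll3SI, 1001 Mll4SI and 411 Mll3/4SI cells of highest score were removed. Cells were clustered jointly without S100, marker and partner genes (2000 variable genes, 30 principal components, 15 neighbours, Leiden resolution 1, 32 clusters). Clusters were named from at least 3 markers with a lead of 2 over the next class, in analyses with Python 3.11.15, scanpy 1.11.5, leidenalg 0.10.2 and scipy 1.17.1.

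UMIs of a class were summed in each library and given as CPM with exact Poisson intervals. Ratios are log2 of CPM + 1, and their intervals are exact conditional ones without the added 1. Classes needed 50 cells in both libraries. No test was possible with 1 library per group. The calculation was checked on simulated counts. Alternatives covered scaling, cell filters, doublets, hashtags, clustering and class naming.

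The members and gene lists were chosen with earlier results of these data known. Named genes were the 8 members, list genes past the fold in granulocyte-monocyte-like or HSC/MPP-like cells, and the genes most like each member. Tlr4, Ager, Anxa2, Cebpa and Cebpe, and Itgam in early cells, were named beyond that rule after their values were seen.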

Additional observations from a re-analysis of the deposited data

Results flagged for a closer look

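S100a6 in Mll4SI moved in opposite directions past the fold in different classes. Its log2 ratio to control was 1.35 in erythroid-like cells and -1.16 in mid granulocyte-like cells. The erythroid-like value rests on 29.2 CPM against 10.8, and it was -0.15 once cells positive for both hashtags were removed. The mid granulocyte-like value was -0.67 with finer clustering and -0.92 with doublets kept, inside the fold. The difference between the classes was not tested.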

How the results depend on the processing

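Of 183 log2 ratios of members, which leave out B-like cells and the unnamed clusters, 20 were past the fold. Of these, 6 stayed past it under every alternative that gave a value and 14 came inside it under at least 1, and 19 of the other 163 went past it under at least 1. The 6 include S100a8 in erythroid-like cells of Mll4SI, which had too few Hashtag2 cells for a ratio. Those 45 cells stood at 477 CPM, against 403 among Hashtag2 cells of control. 1 of the 20 changed sign, S100a6 in erythroid-like cells of Mll4SI, at -0.15 in place of 1.35 with cells positive for both hashtags removed. The counts of members past the fold were less stable. Over all kept cells the Mll3SI count of 0 was 1 among Hashtag1 cells, and the Mll3/4SI count of 1 was 0 with median-of-ratios scaling, with a total without the 20 highest genes, among Hashtag1 cells and with the class makeup of control. In granulocyte-monocyte-like cells the Mll3SI count of 0 was 1 among Hashtag1 cells, the Mll4SI count of 0 was 1 with a mean over cells and among Hashtag2 cells, and the Mll3/4SI count of 1 was 2 with a total without the 20 highest genes and among Hashtag2 cells. In HSC/MPP-like cells the Mll4SI count of 2 was 0 among Hashtag1 cells, and the Mll3/4SI count of 1 was 0 among Hashtag2 cells. The cause was not tested. Finer clustering took S100a8 in early Mll3/4SI cells from 2.97 to 1.48 and S100a9 from 2.52 to 0.88. Early cells without cluster 27, and the values by cluster and by hashtag, were chosen after seeing the data. No paired analysis was possible because each group had 1 library. For the same reason no library could be left out. Depth limits S100a4 and, in granulocytes, S100a10.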
